A study of Mus musculus with 6 samples.

Results

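The collagen genes are described here, chosen as the rows of the FPKM table whose symbol reads Col, a number, the letter a and a number. They were 44 of the 26881 genes in the table. By the collagen each chain builds they were 11 fibrillar genes, 6 basement membrane genes (type IV), 6 beaded filament genes (type VI) and 21 others. The others were 9 fibril-associated, 4 transmembrane, 3 network-forming, 2 multiplexin, 1 anchoring fibril and 2 remaining genes. RNA-seq was made of 3 Cfp1-cKO and 3 WT heart samples of mice at the age of 2 weeks. Cfp1-cKO hearts, labelled CXXC1 null, came from Myh6-Cre: Cfp1 flox/flox mice on C57BL/6, in which the Myh6 promoter drives Cre in cardiomyocytes, so that other heart cells are not its target. The genotype of the mice behind the WT RNA samples, and whether a sample was 1 heart or several, are not given in the sources used here, and p-values therefore cover the spread between samples only. The level of a gene is its FPKM, fragments divided by exon length in kilobases and by the library's fragment total.

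A collagen is built from 3 chains wound into a triple helix, which is stabilised by hydroxylation of its prolines and lysines inside the cell. Fibrillar collagens (types I, III and V in the heart) form the fibres of the interstitium, type IV forms the sheet of the basement membrane around cardiomyocytes and vessels, and type VI forms beaded filaments between the 2. In the heart, fibroblasts are the main known source of types I and III, and many cell types make type IV. Cfp1, encoded by Cxxc1, binds unmethylated CpG and belongs to the Setd1 complexes, which methylate lysine 4 of histone H3. A bulk sample cannot tell more cells of a type from more RNA per cell.

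Promoter windows are printed for 4 members, because CpG is what Cfp1 binds and because they span the range among the members described below. They are Col4a4, with the smallest adjusted p of the family, Col8a1, with the largest fold change, and the most abundant chain of each of the classes with the highest levels, Col4a1 and Col3a1. Each window holds 250 bases before and 50 bases after the start of transcription, 5′ to 3′ on the gene's strand, from RefSeq on GRCm38.p6. CpG is in capitals. The windows are chr1:82586800-82587099 (minus strand, 14 CpG, 63.3% G and C) for Col4a4, chr16:57754688-57754987 (minus strand, 12 CpG, 60.3%) for Col8a1, chr8:11312777-11313076 (minus strand, 37 CpG, 74.0%) for Col4a1 and chr1:45311288-45311587 (plus strand, 0 CpG, 37.7%) for Col3a1.
Col4a4: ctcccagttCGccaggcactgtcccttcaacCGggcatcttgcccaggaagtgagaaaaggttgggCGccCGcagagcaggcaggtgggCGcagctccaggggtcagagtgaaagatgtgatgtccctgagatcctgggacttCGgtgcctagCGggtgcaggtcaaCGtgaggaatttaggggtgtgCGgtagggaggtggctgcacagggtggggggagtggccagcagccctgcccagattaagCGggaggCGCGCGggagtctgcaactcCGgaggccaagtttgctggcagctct
Col8a1: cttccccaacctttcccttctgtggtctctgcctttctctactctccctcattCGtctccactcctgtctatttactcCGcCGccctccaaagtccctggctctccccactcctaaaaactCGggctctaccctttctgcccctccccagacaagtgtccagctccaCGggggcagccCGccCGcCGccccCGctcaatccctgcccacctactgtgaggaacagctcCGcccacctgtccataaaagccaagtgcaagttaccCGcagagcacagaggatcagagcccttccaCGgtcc
Col4a1: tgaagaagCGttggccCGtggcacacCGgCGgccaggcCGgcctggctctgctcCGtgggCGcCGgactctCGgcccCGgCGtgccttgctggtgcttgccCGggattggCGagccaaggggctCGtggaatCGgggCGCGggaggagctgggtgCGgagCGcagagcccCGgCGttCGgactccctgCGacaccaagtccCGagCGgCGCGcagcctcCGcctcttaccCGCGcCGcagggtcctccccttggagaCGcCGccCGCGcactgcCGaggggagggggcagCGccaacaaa
Col3a1: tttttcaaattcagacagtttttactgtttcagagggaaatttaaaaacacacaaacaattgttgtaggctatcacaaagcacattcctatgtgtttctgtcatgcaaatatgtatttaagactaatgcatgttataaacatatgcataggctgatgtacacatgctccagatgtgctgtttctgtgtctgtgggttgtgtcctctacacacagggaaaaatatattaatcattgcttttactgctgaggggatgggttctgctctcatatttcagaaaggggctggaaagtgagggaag
The CpG count ran between 0 in Col3a1 and 37 in Col4a1 at similar levels of the 2 genes. A window was found for 35 of the 44 genes, 38 windows in all, and their median was 11.5 CpG, against 7 over 32851 windows of all genes. The 9 windows of collagen genes called higher had a median of 14 CpG, and the 9 windows of tested collagen genes that were not called had a median of 13. GGGCGG, the letters of the GC box, on either strand, was in 60.5% of the collagen windows and in 35.7% of all windows, CCAAT in 34.2% and 37.4%, and TATAAA in 13.2% and 13.6%. These are counts of letters and not binding sites. Type IV genes lie in pairs that run away from each other. The first exons of Col4a1 and Col4a2 overlapped by 22 bases, the starts of Col4a4 and Col4a3 lay 72 bases apart, so that the Col4a4 window above also holds the start of Col4a3, and the starts of Col4a6 and Col4a5 lay 1309 bases apart.

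Library totals were 19481847, 16672652 and 18014630 fragments in Cfp1-cKO hearts and 22700811, 18847891 and 18007474 fragments in WT hearts, and collagen genes held 75167, 114847 and 83589 of them in Cfp1-cKO hearts and 51876, 29534 and 63858 in WT hearts. Cxxc1, measured over the whole gene and all cells, ran from 8.02 to 9.94 FPKM in Cfp1-cKO hearts and from 9.66 to 12.9 FPKM in WT hearts, overlapping ranges that do not measure the deletion itself. Its log2 fold change, here and below that of FPKM + 1 and Cfp1-cKO minus WT, was -0.26 (limma adjusted p = 0.249), or -0.66 with groups apart (limma adjusted p = 0.0571) after the scaling described next. The summed level of 12 lung epithelial markers was 4554, 3230 and 4900 FPKM in Cfp1-cKO libraries and between 0.421 and 3.96 FPKM in WT libraries. The sex read from the data was 2 female and 1 male in Cfp1-cKO samples and 1 female and 2 male in WT samples. The median log2 fold change of the 11017 tested genes, those with a mean of at least 1 FPKM, was 0.35, so results are also given after scaling by median-of-ratios factors, with which this median is 0.00. Of all called genes 92.6% were higher in Cfp1-cKO hearts as deposited and 53.4% were higher after this scaling.

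As deposited, the summed level of collagen transcripts was higher in Cfp1-cKO hearts in each of the 4 classes, with no overlap between the genotypes and ratios of means between 2.00 and 2.37. The summed level of the 44 genes was 488, 866 and 594 FPKM in Cfp1-cKO hearts, against 289, 202 and 446 FPKM in WT hearts. The lowest Cfp1-cKO library lay above the highest WT library, and the ratio of the means was 2.08. After median-of-ratios scaling the sums were 459, 710 and 484 in Cfp1-cKO hearts, against 340, 247 and 491 in WT hearts, a ratio of 1.53, and the groups overlapped because WT replicate 3 exceeded 2 of the Cfp1-cKO libraries. By class the scaled sums overlapped for fibrillar, basement membrane and other collagens. For beaded filament collagens they stayed narrowly apart (at least 51.7 against at most 49.8). Single genes were apart with Cfp1-cKO higher in 46.4% of all tested genes as deposited and in 16.7% after scaling.

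**Figure D1:**
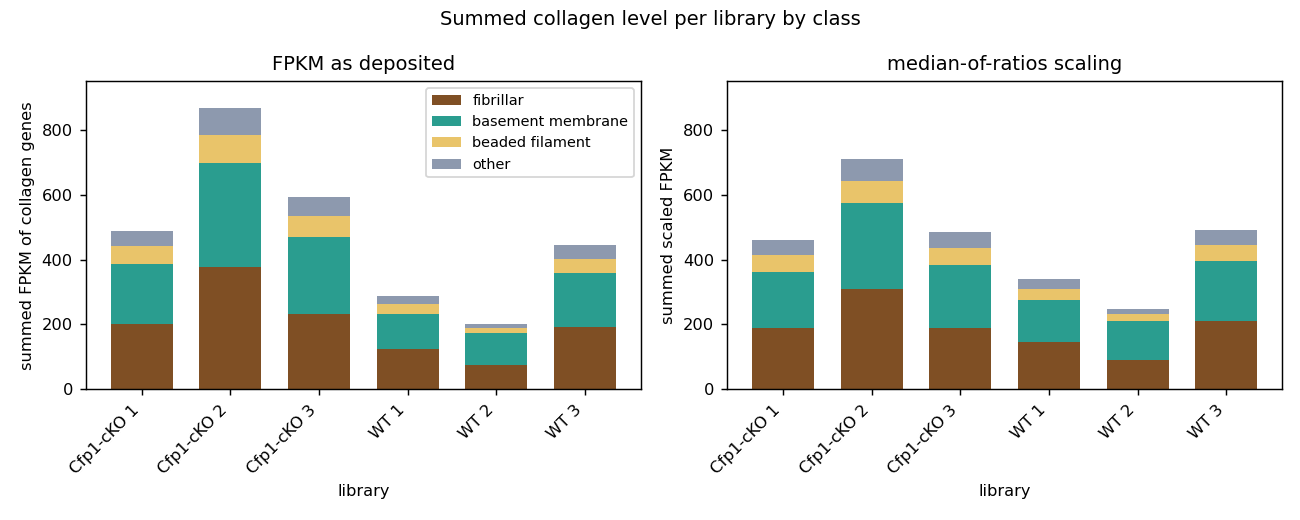
Summed FPKM of the collagen genes (vertical axis) in each of the 3 Cfp1-cKO and 3 WT libraries (horizontal axis), stacked by class, as deposited (left) and after median-of-ratios scaling (right), with no error bars because each bar is 1 library. As deposited, all Cfp1-cKO bars (488 to 866) are taller than all WT bars (202 to 446), and after scaling WT replicate 3 (491) is taller than Cfp1-cKO replicates 1 and 3.

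Every one of the 20 tested collagen genes had a log2 fold change above 0, against 83.6% of all tested genes. Their median log2 fold change was 1.10, against 0.35 over all tested genes. Called higher were 10 of the 20, at an adjusted p (Benjamini-Hochberg, limma over all tested genes) below 0.05 and a log2 fold change above 0.5, where the background is 21.1% of all tested genes. They were Col4a4, Col8a1, Col4a3, Col23a1, Col4a5, Col6a1, Col4a1, Col6a2, Col5a2 and Col16a1. Col4a3 and Col23a1, with WT means of 0.884 and 0.652 FPKM, passed the filter only through their level in Cfp1-cKO hearts. Their place among the 20 and their calls are therefore not independent of that level. Called lower were 0 of the 20, against a background of 1.68%, and 0 had an unadjusted p below 0.05 in that direction. All 20 had an unadjusted p below 0.05 with a higher level in Cfp1-cKO hearts, against 40.7% of all tested genes, and the adjusted p of the 10 that were not called lay between 0.0517 (Col4a2) and 0.103 (Col15a1). In 15 of the 20 the 3 Cfp1-cKO libraries all exceeded the 3 WT libraries, against 46.4% of all tested genes. Voom on fragments recovered from the FPKM steps, added after seeing the data, called 14 of the 20 higher, against 23.4% of all tested genes, and 0 lower, against 1.52%.

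The count depended on the scaling and on single libraries. After median-of-ratios scaling 1 of the 20, Col4a4, was called higher, against 3.73% of all tested genes, and 0 lower, against 3.25%. With this scaling 10 had an unadjusted p below 0.05, against 12.7%, the groups were apart in 8, against 16.7%, and all 20 log2 fold changes remained above 0, against 50.5%, with a median of 0.68. Without Cfp1-cKO replicate 2 the call rested on Col4a4 alone (1 of 20), and without WT replicate 1 it held for 3, without Cfp1-cKO replicate 3 for 4 and without WT replicate 2 for 6. It held for 11 without Cfp1-cKO replicate 1 and for all 20 without WT replicate 3. These fits also changed the count called higher over all 11017 tested genes, from 2325 with all libraries. That count was 538 without Cfp1-cKO replicate 2, 619 without WT replicate 1, 954 without Cfp1-cKO replicate 3 and 1513 without WT replicate 2. It was 1742 without Cfp1-cKO replicate 1 and 2588 without WT replicate 3. Cfp1-cKO replicate 2 was the highest library for 18 of the 20 tested collagen genes, against 34.2% of all tested genes, and WT replicate 2 was the lowest for 19, against 42.2%. After median-of-ratios scaling these were still 16 (18.4% of all tested genes) and 18 (30.2%).

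**Figure D2:**
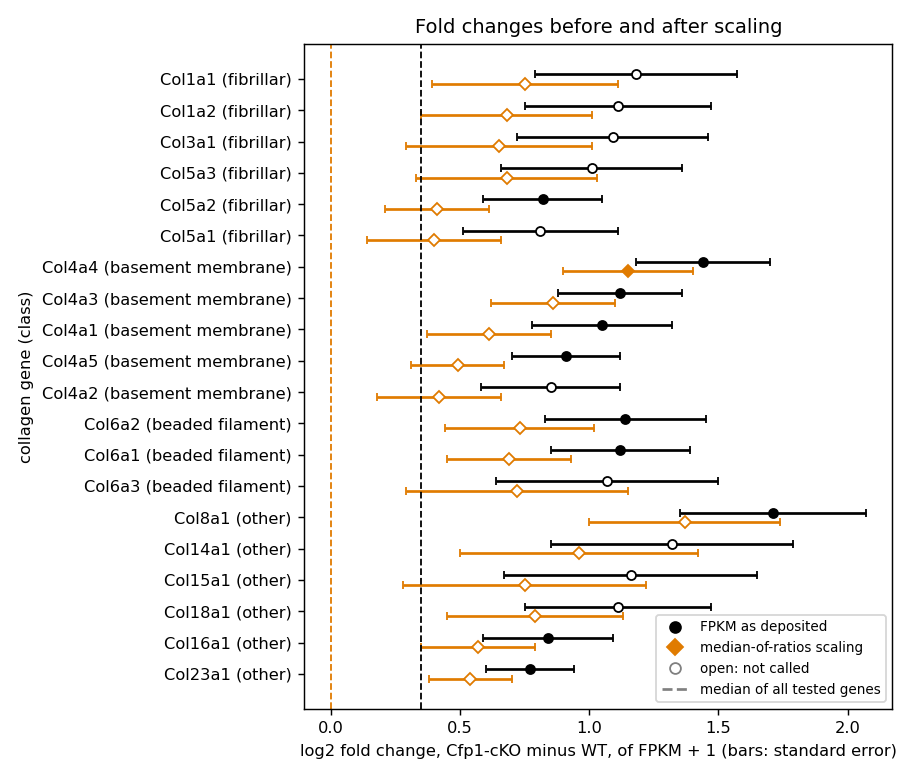
Log2 fold change, Cfp1-cKO minus WT, of FPKM + 1 (horizontal axis) for the 20 tested collagen genes (vertical axis, by class), as deposited (black circles) and after median-of-ratios scaling (orange diamonds), with bars for the standard error of the limma fit over 3 Cfp1-cKO and 3 WT libraries and filled marks for called genes. Every mark lies above 0, all black marks lie right of the median of all tested genes (dashed, 0.35), and Col4a4 is the only filled diamond.

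Basement membrane chains held 4 of the 10 calls, among 5 tested members of 6, where the background is 21.1% of all tested genes. After scaling 1 of the 5 was called, against 3.73%. The summed level of the class was 184, 322 and 238 FPKM in Cfp1-cKO hearts, against 108, 97.6 and 166 FPKM in WT hearts, a ratio of 2.00 (1.47 after scaling). Type IV comes as the widespread α1 and α2 chains and as the α3, α4 and α5 chains, which form the mature basement membrane of the kidney glomerulus and are also known in the lung alveolus. The largest fold changes of the class were in α3 and α4. Col4a4 (ENSMUSG00000067158, on chromosome 1 between 82448423 and 82586849 of GRCm38) was measured at 4.22, 5.58 and 4.79 FPKM in Cfp1-cKO hearts, against 1.20, 0.485 and 2.03 FPKM in WT hearts. The groups were well apart. Its log2 fold change was 1.44 (SE, the standard error, 0.26, limma adjusted p = 0.0109) as deposited and 1.15 (limma adjusted p = 0.0342) after scaling, and as deposited it stayed called whichever library was left out (adjusted p at most 0.0454). After scaling its call was lost without Cfp1-cKO replicate 1, 2 or 3 or WT replicate 1 (limma adjusted p = 0.0946, 0.131, 0.0780 and 0.105).

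Col4a3, which starts 72 bases from it, measured 2.74, 3.32 and 2.85 FPKM in Cfp1-cKO hearts, against 1.04, 0.266 and 1.35 FPKM in WT hearts. Again the groups did not overlap, with WT replicate 2 far below the others. The log2 fold change was 1.12 (SE 0.24, limma adjusted p = 0.0180), and 0.86 (limma adjusted p = 0.0725) after scaling. The call was lost without Cfp1-cKO replicate 2 (limma adjusted p = 0.0693). A transcript on the opposite strand, C430014B12Rik, covers 5.65% of the exon bases of Col4a3, and whether counting used strand is not given in the sources used here. Col4a5, on chromosome X, measured 17.6, 23.7 and 24.4 FPKM in Cfp1-cKO hearts, against 12, 8.33 and 13.5 FPKM in WT hearts. Its groups were apart with a log2 fold change of 0.91 (SE 0.21, limma adjusted p = 0.0226), and its call was lost without Cfp1-cKO replicate 2, Cfp1-cKO replicate 3 or WT replicate 1 (adjusted p at most 0.0890).

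The α1 and α2 chains were the most abundant collagen transcripts after Col3a1 in both genotypes. Col4a1 measured 94.8, 169 and 116 FPKM in Cfp1-cKO hearts, against 52.4, 47.9 and 81.2 FPKM in WT hearts. The groups did not overlap, though WT replicate 3 came near Cfp1-cKO replicate 1. The log2 fold change of Col4a1 was 1.05 (SE 0.27, limma adjusted p = 0.0286), and the call was lost in 4 of the 6 fits without 1 library (all but those without Cfp1-cKO replicate 1 or WT replicate 3, adjusted p at most 0.101). Col4a2 measured 64.2, 118 and 88.8 FPKM in Cfp1-cKO hearts, against 41.1, 40.3 and 67.0 FPKM in WT hearts. Here WT replicate 3 exceeded Cfp1-cKO replicate 1, and the gene missed the threshold (log2 fold change 0.85, limma adjusted p = 0.0517). The ratio of Col4a1 to Col4a2 was 1.48, 1.43 and 1.31 in Cfp1-cKO hearts, against 1.28, 1.19 and 1.21 in WT hearts. This ratio needs no scaling between libraries, and its groups did not overlap, which gives a two-sided exact permutation test of 3 libraries against 3 its smallest possible p of 0.10. The ratio of Col4a4 to Col4a1, chosen after seeing the data, was 0.0445, 0.0330 and 0.0412 in Cfp1-cKO hearts, against 0.0229, 0.0101 and 0.0249 in WT hearts, again without overlap. Col4a6, the partner of Col4a5, stayed below the filter at 0.682, 1.82 and 1.23 FPKM in Cfp1-cKO hearts, against 0.381, 0.286 and 0.508 FPKM in WT hearts.

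**Figure D3:**
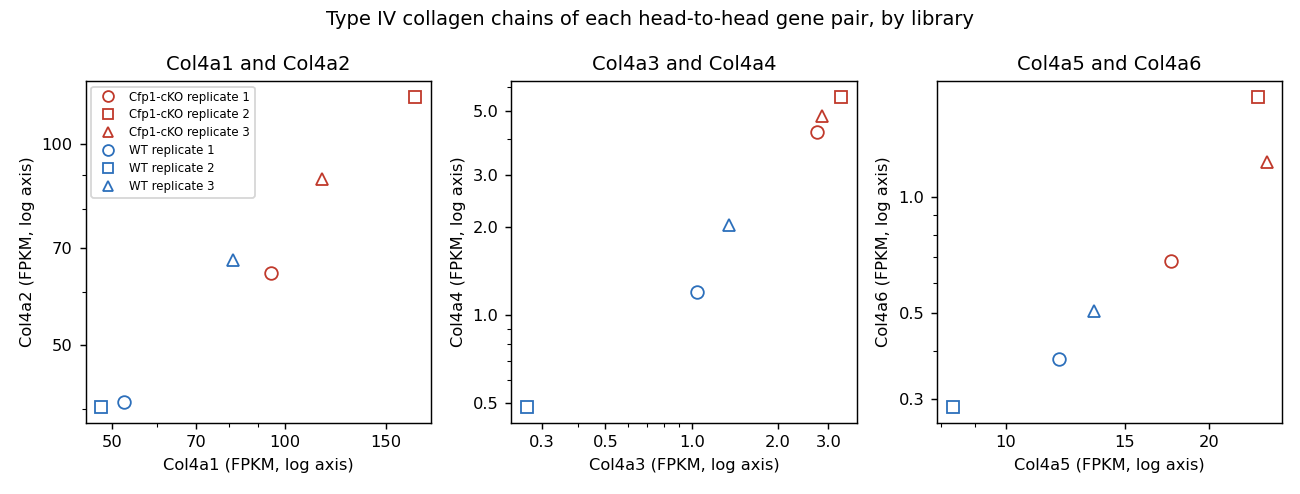
FPKM of the 2 genes of each head-to-head type IV pair against each other, both axes on a log scale, 1 point per library (3 Cfp1-cKO in red, 3 WT in blue), with no error bars. In the middle panel (Col4a3 and Col4a4) the Cfp1-cKO points (2.74 FPKM or more of Col4a3) lie apart from the WT points (1.35 FPKM or less), and in the left panel WT replicate 3 lies beside Cfp1-cKO replicate 1.

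Fibrillar chains had the highest mean summed level and 1 call among 6 tested members of 11, no larger a share than the 21.1% of all tested genes. The sum was 201, 376 and 233 FPKM in Cfp1-cKO hearts, against 125, 74.6 and 192 FPKM in WT hearts, a ratio of 2.07 (1.53 after scaling). Col5a2, a chain of type V collagen, which sets the diameter of type I fibrils, measured 15.4, 28.2 and 18.5 FPKM in Cfp1-cKO hearts, against 11.4, 9.19 and 12.4 FPKM in WT hearts. Its groups were apart, with the WT libraries close to each other. The log2 fold change was 0.82 (SE 0.23, limma adjusted p = 0.0367), and the call was kept only without Cfp1-cKO replicate 1 or WT replicate 3 (adjusted p at most 0.116 without the others). Its partner Col5a1 measured 12.2, 23.3 and 18 FPKM in Cfp1-cKO hearts, against 9.17, 6.45 and 14.1 FPKM in WT hearts, which overlapped (log2 fold change 0.81, limma adjusted p = 0.0766).

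The main chains of the interstitial fibres did not pass the test. Col3a1, the type III chain and the most abundant collagen transcript of both genotypes, measured 103, 187 and 104 FPKM in Cfp1-cKO hearts, against 62.8, 34.0 and 94.3 FPKM in WT hearts. The groups were apart by a small gap between WT replicate 3 and Cfp1-cKO replicate 1 (log2 fold change 1.09, limma adjusted p = 0.0626). Col1a1, the α1 chain of type I, measured 38.0, 80.7 and 52.6 FPKM in Cfp1-cKO hearts, against 23.1, 13.7 and 39.9 FPKM in WT hearts. Here WT replicate 3 exceeded Cfp1-cKO replicate 1 (log2 fold change 1.18, limma adjusted p = 0.0552). Col1a2, the α2 chain of type I, measured 26.8, 49.2 and 31.3 FPKM in Cfp1-cKO hearts, against 14.6, 9.50 and 26.6 FPKM in WT hearts, which were barely apart (log2 fold change 1.11, limma adjusted p = 0.0536). The ratio of Col1a1 to Col1a2 was 1.42, 1.64 and 1.68 in Cfp1-cKO hearts and 1.59, 1.44 and 1.5 in WT hearts. The ratio of Col3a1 to Col1a1 was 2.72, 2.32 and 1.98 in Cfp1-cKO hearts and 2.72, 2.48 and 2.36 in WT hearts. Both ratios overlapped between genotypes. The other tested fibrillar gene, Col5a3, had a log2 fold change of 1.01 (limma adjusted p = 0.0652), and all 3 type I and III genes and Col5a3 were called once WT replicate 3 was left out.

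Beaded filament chains had 2 calls among 3 tested members of 6, against 21.1% of all tested genes, and 0 after scaling, against 3.73%. Their summed level was 55.4, 85.6 and 63.5 FPKM in Cfp1-cKO hearts, against 31.2, 17.9 and 45.2 FPKM in WT hearts (ratio 2.17, 1.60 after scaling and 2.77 without WT replicate 3). Type VI filaments anchor the basement membrane of muscle to the surrounding matrix. Col6a1, the α1 chain, measured 34.2, 52.2 and 38.8 FPKM in Cfp1-cKO hearts, against 19.4, 12.4 and 25.9 FPKM in WT hearts. The groups did not overlap, also after scaling. Its log2 fold change was 1.12 (SE 0.27, limma adjusted p = 0.0255) as deposited and 0.69 (limma adjusted p = 0.139, not called) after scaling. Col6a2, the α2 chain, measured 14.2, 23.6 and 16.6 FPKM in Cfp1-cKO hearts, against 8.32, 4.31 and 11.4 FPKM in WT hearts. Its groups were apart in the same way. The log2 fold change of Col6a2 was 1.14 (SE 0.31, limma adjusted p = 0.0362) as deposited and 0.73 (limma adjusted p = 0.175, not called) after scaling. The ratio of Col6a1 to Col6a2 was 2.42, 2.22 and 2.34 in Cfp1-cKO hearts, against 2.33, 2.87 and 2.27 in WT hearts, which overlapped. The call of Col6a1 was lost without Cfp1-cKO replicate 2, Cfp1-cKO replicate 3 or WT replicate 1 (adjusted p at most 0.0970), and that of Col6a2 without any 1 library other than WT replicate 3 (at most 0.128). Col6a3, the long α3 chain, measured 6.17, 8.40 and 6.86 FPKM in Cfp1-cKO hearts, against 2.73, 0.945 and 6.92 FPKM in WT hearts, so that WT replicate 3 matched the Cfp1-cKO libraries while WT replicate 2 was far below (limma adjusted p = 0.0948).

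Of the 21 other collagens 6 were tested and 3 were called higher, against 21.1% of all tested genes. After scaling 0 of the 6 were called, against 3.73%. Col8a1, a short-chain network-forming collagen known from vessel walls and the endothelium, had the largest log2 fold change of the tested members. This rank is that of FPKM + 1. By the ratio of means Col8a1 (3.86) lay just below Col4a4 (3.93), and below some members under the filter, such as Col9a2 (5.71). Col8a1 measured 9.24, 10.8 and 7.31 FPKM in Cfp1-cKO hearts, against 2.47, 0.675 and 3.94 FPKM in WT hearts. The groups were clearly apart, also after scaling, with a log2 fold change of 1.71 (SE 0.36, limma adjusted p = 0.0172), and 1.37 (limma adjusted p = 0.0669) after scaling. The call was lost without Cfp1-cKO replicate 2 (limma adjusted p = 0.0663). Of 5 ratios chosen after seeing the data, those of Col4a4 to Col4a1 and of Col8a1 to Col3a1 did not overlap between genotypes, and those of Col4a3 to Col4a4, Col5a2 to Col5a1 and Col6a3 to Col6a1 overlapped. The ratio of Col8a1 to Col3a1 was 0.0896, 0.0576 and 0.0704 in Cfp1-cKO hearts, against 0.0393, 0.0198 and 0.0417 in WT hearts.

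Col23a1, a transmembrane collagen, measured 1.63, 2.19 and 1.64 FPKM in Cfp1-cKO hearts, against 0.822, 0.592 and 0.542 FPKM in WT hearts. It was the only tested collagen gene whose lowest level was not in WT replicate 2, and the groups were apart (log2 fold change 0.77, SE 0.17, limma adjusted p = 0.0198). Its call was lost without Cfp1-cKO replicate 2 or WT replicate 1 (adjusted p at most 0.0756). Col16a1, a fibril-associated collagen, measured 1.85, 3.76 and 2.54 FPKM in Cfp1-cKO hearts, against 0.790, 0.755 and 1.65 FPKM in WT hearts. Its groups were apart as deposited but not after scaling. The log2 fold change was 0.84 (SE 0.25, limma adjusted p = 0.0413) as deposited and 0.57 (limma adjusted p = 0.162) after scaling. As deposited the call was kept only without Cfp1-cKO replicate 1 or WT replicate 3 (adjusted p at most 0.138 without the others). Col15a1, a multiplexin of basement membrane zones, measured 19, 30.9 and 27.8 FPKM in Cfp1-cKO hearts, against 12, 4.19 and 23.3 FPKM in WT hearts, the widest WT spread among the 10 most abundant members by ratio (limma adjusted p = 0.103). Its relative Col18a1, the precursor of endostatin, had a log2 fold change of 1.11 (limma adjusted p = 0.0554), and fibril-associated Col14a1 one of 1.32 (limma adjusted p = 0.0699). The summed level of the class was 46.8, 82.3 and 59.3 FPKM in Cfp1-cKO hearts, against 24.9, 11.9 and 42.5 FPKM in WT hearts (ratio 2.37, 1.76 after scaling and 3.41 without WT replicate 3).

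**Figure D4:**
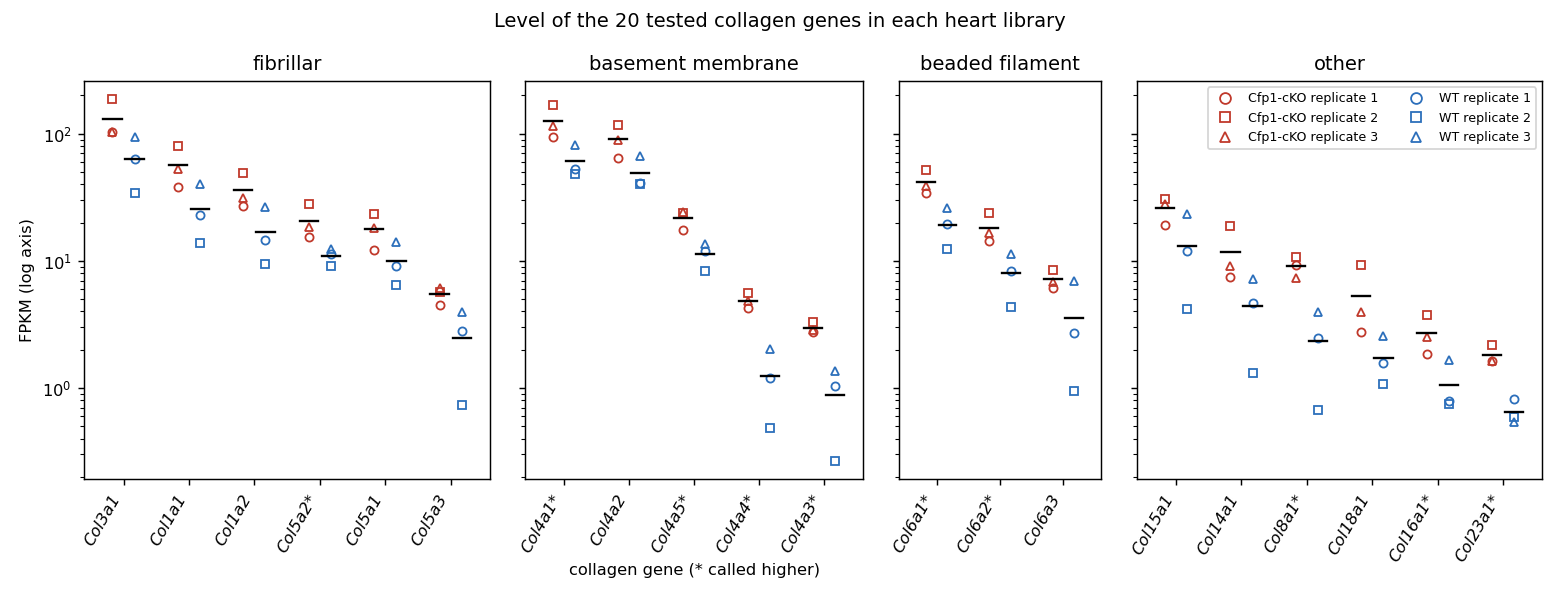
FPKM (vertical axis, log scale) of the 20 tested collagen genes (horizontal axis, by class) in 3 Cfp1-cKO libraries (red, left of each pair) and 3 WT libraries (blue, right), 1 symbol per library and a black line at the group mean, with asterisks at called genes. Cfp1-cKO replicate 2 (red squares) is the highest point for 18 of the 20 genes and WT replicate 2 (blue squares) the lowest for 19.

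The make-up of the collagen transcripts by class differed by less than its spread between libraries. Fibrillar genes held 41.3% ± 2.1 of the summed collagen FPKM in Cfp1-cKO hearts and 41.1% ± 3.59 in WT hearts (SD, n = 3 each). Basement membrane genes held 38.4% ± 1.55 in Cfp1-cKO hearts and 41.0% ± 6.35 in WT hearts, beaded filament genes 10.6% ± 0.739 and 9.94% ± 0.981, and the others 9.69% ± 0.249 and 8.02% ± 1.89. All 4 differences were smaller than the larger SD of the 2 groups. The 6 most abundant genes, Col3a1, Col4a1, Col4a2, Col1a1, Col6a1 and Col1a2, held 74.2% ± 1.59 in Cfp1-cKO hearts and 75.7% ± 2.17 in WT hearts (SD, n = 3 each). They stood in this order by mean in both genotypes, but the ranges of neighbours in the order overlapped, apart from Col4a2 and Col1a1 in WT hearts.

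The 24 members below the filter were 5 fibrillar genes (Col2a1, Col11a1, Col11a2, Col24a1 and Col27a1), Col4a6, the 3 type VI genes Col6a4, Col6a5 and Col6a6, and 15 others. None exceeded 1.82 FPKM in a Cfp1-cKO library or 1.80 FPKM in a WT library, and 3 had under 10 fragments in all libraries together. The mean was higher in Cfp1-cKO hearts for 22 of the 24, and lower for Col13a1, which was at 1.80 FPKM in WT replicate 2 and at most 0.725 FPKM elsewhere, and for Col25a1. The share of all genes below the filter with a higher mean was not counted, so the 22 have no background. Of all tested genes 83.6% had a log2 fold change above 0 as deposited. Cfp1-cKO libraries had 21906, 22119 and 22269 genes above 0 FPKM, and WT libraries 19881, 19037 and 20173. With no filter, over all 26881 genes, 5 of the 44 collagen genes were called higher, against 5.65% of all genes. They were Col4a3, Col4a4, Col4a5, Col23a1 and Col9a2, a chain of the cartilage collagen type IX. Col9a2 measured 0.680, 1.36 and 1.29 FPKM in Cfp1-cKO hearts, against 0.228, 0.0857 and 0.269 FPKM in WT hearts.

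As deposited, genes that modify, secrete and bind collagen were also higher where they were called. The shares of all tested genes called higher, 21.1% as deposited and 3.73% after scaling, are the background of the counts below. Of 13 tested genes that hydroxylate and glycosylate collagen chains 6 were higher and 0 lower, with a median log2 fold change of 0.71. The 4 with the largest fold changes were P4ha1, the catalytic subunit of prolyl 4-hydroxylase (13.9 ± 3.8 FPKM in Cfp1-cKO and 5.23 ± 1.60 FPKM in WT hearts, SD, n = 3 each, with a log2 fold change of 1.26), the prolyl 3-hydroxylases P3h2 (0.99) and P3h3 (0.78), and the lysyl hydroxylase Plod1 (0.96). After scaling P3h2 was the 1 still called. Of 15 tested genes of folding and secretion 5 were higher and 0 lower. They included Sparc, a collagen-binding glycoprotein (358 ± 90.3 FPKM in Cfp1-cKO and 156 ± 52.2 FPKM in WT hearts, SD, n = 3 each), the transcription factors Creb3l2 and Creb3l1, and Rcn3, and 0 were called after scaling. Of 6 tested genes of procollagen processing 3 were higher and 0 lower, the propeptide protease Adamts2 (log2 fold change 0.99) and the enhancers of C-propeptide cleavage Pcolce (0.96) and Pcolce2 (0.76), again with 0 called after scaling.

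Of 14 tested fibril-binding proteoglycans and organisers 3 were higher and 0 lower. Biglycan (Bgn) was at 59.6 ± 14.6 FPKM in Cfp1-cKO hearts and 17.5 ± 6.79 FPKM in WT hearts (SD, n = 3 each), with a log2 fold change of 1.76 (limma adjusted p = 0.00851), fibronectin (Fn1) had 1.60 and Comp 1.10. After scaling Bgn remained called, and Podn was called lower (log2 fold change -1.20, limma adjusted p = 0.0441). Of 7 tested collagen receptors 5 were higher and 0 lower, among them Cd44 (9.11 ± 0.780 FPKM in Cfp1-cKO and 1.75 ± 0.258 FPKM in WT hearts, SD, n = 3 each), the endocytic receptor Mrc2 (log2 fold change 1.03), the integrin chain Itga1 (1.00) and the discoidin domain receptor Ddr1 (0.99). Cd44 kept its call after scaling. Of 12 tested basement membrane partners of type IV only Agrn (log2 fold change 1.14, limma adjusted p = 0.00565) and Sparc were higher, and Agrn kept the call after scaling. This share, and that of the proteoglycans and organisers, lay near the 21.1% of all tested genes. P3h2, Bgn, Cd44 and Agrn were called in all 6 fits without 1 library, and every other called gene of these lists lost its call without Cfp1-cKO replicate 2.

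Markers of several cell types also differed between the genotypes. All 11 tested lung epithelial markers of 12 were higher in Cfp1-cKO hearts, with Sftpc, surfactant protein C, at 1202, 2163 and 3232 FPKM in Cfp1-cKO hearts, against 0, 0.330 and 0 FPKM in WT hearts, and with Lamp3 and Cldn18 listed at 0 in all WT libraries. The summed level of 7 lung mesenchyme markers was 42.8, 14.6 and 21.7 FPKM in Cfp1-cKO hearts, against 7.20, 9.29 and 10.4 FPKM in WT hearts, with 2 of 3 tested members higher (Npnt and Inmt) and Tbx4 listed at 0 in all WT libraries. Of the 12 lung epithelial markers 8, Sftpc among them, were lowest within the Cfp1-cKO libraries in replicate 1. Without Scgb1a1 of airway cells, which measured 2904, 405 and 671 FPKM in Cfp1-cKO hearts, the lung epithelial sum was 1650, 2825 and 4229 FPKM in Cfp1-cKO hearts, against 0.421, 2.51 and 0.433 FPKM in WT hearts. With or without Scgb1a1 it was highest in Cfp1-cKO replicate 3, and the Cfp1-cKO library in which it was lowest changed from replicate 2 to replicate 1 (a sum added after seeing the data). With 21.1% of all tested genes higher as deposited, only 1 of 8 fibroblast markers, Tcf21, was higher, and their sum was 595, 594 and 514 FPKM in Cfp1-cKO hearts, against 461, 477 and 416 FPKM in WT hearts. These groups were apart as deposited, and after scaling they overlapped with a ratio of 0.924. Of 6 activated fibroblast markers 2 were higher (Meox1 and Ltbp2). Their sum was 60.8, 146 and 47.0 FPKM in Cfp1-cKO hearts, against 35.1, 15.4 and 37.3 FPKM in WT hearts. After scaling these groups overlapped, at 57.3, 120 and 38.3 in Cfp1-cKO hearts, against 41.3, 18.9 and 41.1 in WT hearts, and only Ltbp2 was still called. As deposited this sum was highest in Cfp1-cKO replicate 2 and lowest in WT replicate 2, like the collagen sum. So were the sums of macrophage markers (59.6 and 19.7 FPKM), folding and secretion genes (769 and 278 FPKM) and procollagen processing genes (67.6 and 31.7 FPKM). The same held for fibril-binding proteoglycans and organisers (738 and 408 FPKM) and basement membrane partners of type IV (750 and 263 FPKM). After scaling the macrophage sum was highest in Cfp1-cKO replicate 1 (54.6). The processing sum was then lowest in WT replicate 1 (37.5) and the proteoglycan sum in WT replicate 3 (467). As deposited 34.2% of all tested genes were highest in Cfp1-cKO replicate 2 and 42.2% were lowest in WT replicate 2.

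Of 8 cardiomyocyte markers 4 were lower (Tnnt2, Tnni3, Ryr2 and Pln), against 1.68% of all tested genes. The same 4 were lower after scaling, against 3.25%. The sum of the 8 was 10984, 8414 and 11373 FPKM in Cfp1-cKO hearts, against 16838, 10004 and 17174 FPKM in WT hearts, which overlapped. After scaling these groups were apart, at 10346, 6902 and 9262 in Cfp1-cKO hearts, against 19843, 12243 and 18924 in WT hearts. As deposited, where 21.1% of all tested genes were higher, called higher were 3 of 4 tested mesothelial markers (Msln, Upk3b and Upk1b), 3 of 5 tested macrophage markers (Csf1r, Cd68 and Mrc1), 2 of 7 endothelial markers (Cdh5 and Tie1) and 1 of 6 tested mural markers (Cspg4). After scaling, where the share of all tested genes was 3.73%, these counts were 1 (Msln), 1 (Cd68), 0 and 0. Of 2 tested cartilage markers Cytl1 was called lower as deposited (log2 fold change -0.56, limma adjusted p = 0.0472) and after scaling (limma adjusted p = 0.0263). As deposited its call was lost whichever library was left out. The other, Chad, went the other way and was not called (log2 fold change 0.80, limma adjusted p = 0.0712). Among 5 erythroid markers and 1 tested Schwann cell marker 0 were called. What part any of these cells had in the collagen levels was not tested.

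**Figure D5:**
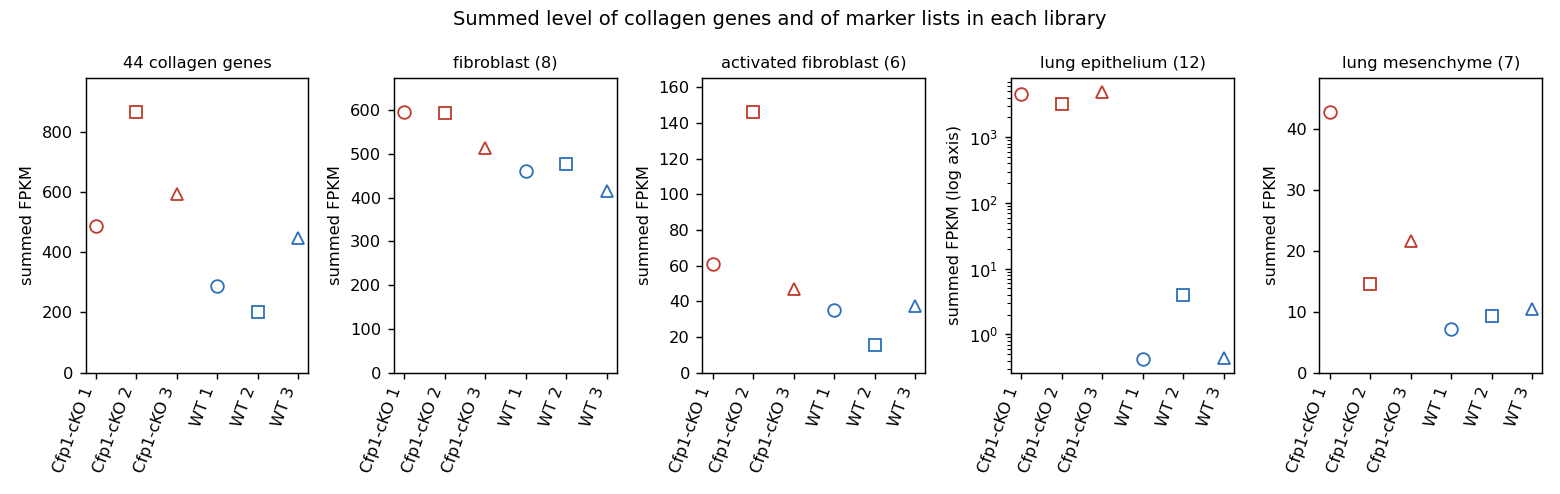
Summed FPKM (vertical axes, from 0 except for the log axis of the lung epithelium panel) of the 44 collagen genes and of 4 marker lists in each of 3 Cfp1-cKO libraries (red) and 3 WT libraries (blue), 1 symbol per library and no error bars. Collagen genes and activated fibroblast markers are both highest in Cfp1-cKO replicate 2 (866 and 146 FPKM) and lowest in WT replicate 2 (202 and 15.4 FPKM). These libraries are the highest and the lowest for 34.2% and 42.2% of all tested genes, and also for the sums of several lists not shown. The lung epithelium sum of Cfp1-cKO replicates 1 and 2 (4554 and 3230 FPKM) has the other order without Scgb1a1 (1650 and 2825 FPKM).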

How the data were processed

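The authors deposited FPKM values per gene of 6 heart libraries (Illumina TruSeq kit), from reads they had aligned and counted. The submitters' processing notes name HISAT2 2.1.0, Bowtie2 2.2.3, TopHat2, HTSeq 0.6.0, DESeq2 and GRCm38, without their order, while the paper's methods give the address of a chicken genome. The submitters' extraction text speaks of another tissue than heart and could not be related to these samples. FPKM were the same in the plain and the annotated table for all 26881 genes, and the coordinates of 43 of the 44 collagen genes equalled those of GENCODE release M21.

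FPKM are not counts, so limma 3.58.1 (R 4.3.3, prior variance with a trend) was run on log2(FPKM + 1), a scale that understates the fold changes of low genes. It was run over 11017 genes whose mean reached 1 FPKM, and was tested on simulated data. Library totals were worked back from FPKM steps, which gave whole fragments, within a tolerance of 0.02, with the GENCODE gene length for 23978 genes and with another fitted length for 2901. With these totals 1 fragment in 5 kilobases was worth 0.00881 to 0.012 FPKM. Median-of-ratios factors were taken over the tested genes and ran from 0.817 to 1.23.

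Values in every library were to be given for all called collagen genes and for the 10 most abundant by mean, and those of Col4a6, Col6a3, Col9a2 and ratios marked so were added after their values were seen. From each pathway list up to 4 members were taken by fold change. Members, classes, lists and thresholds were chosen with earlier results of these data known. Alternatives covered pseudocount, filter, scaling, weights, prior, fold threshold, mitochondrial and haemoglobin genes, replicate block and each library left out. Voom, sex as a covariate and left-out libraries after scaling were added after seeing the data. Promoter motifs were counted on both strands as exact letters. Related collagen genes may share fragments, and proteins were not analysed here. Python 3.11.15, pandas 2.3.3 and matplotlib 3.10.9 made tables and plots.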

Additional observations from a re-analysis of the deposited data

How the results depend on the processing

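All 20 tested collagen genes kept a log2 fold change above 0 under each of the 26 alternatives that tested them. The count of collagen genes called higher, 10 of 20, was 1 after median-of-ratios scaling (also with sex as a covariate). With no filter it was 5 of 44, among them Col9a2, which is below the filter. It was 6 of 14 with a filter at a mean of 5 FPKM, 6 at a log2 fold threshold of 1 and 7 without mitochondrial and haemoglobin genes. With voom it was 14, with sex as a covariate 19 and with library weights 20. Calls over all tested genes were not counted with sex as a covariate, or with libraries left out after scaling. Those collagen counts therefore have no background here and are not read as a result about collagen genes. Leaving out 1 library gave 1 to 20 calls as deposited and 0 to 4 after median-of-ratios scaling. Col4a4 was called in all 6 such fits as deposited and in 2 of the 6 after scaling. Over all genes, 2325 higher and 185 lower, the counts were 411 higher and 358 lower after median-of-ratios scaling, 1518 and 91 with no filter, 4027 and 372 with library weights, and 666 and 77 at a fold threshold of 1. They were 1027 higher at a filter of 5 FPKM and 1376 higher without mitochondrial and haemoglobin genes, and ran from 538 to 2588 higher and from 50 to 201 lower with 1 library left out. The ratio of beaded filament sums, 2.17, was 1.60 after scaling and up to 2.77 (from 1.78) with 1 library left out, and that of the other collagens, 2.37, from 1.86 to 3.41. Fewer genes are tested at the higher filter, and the cause of the other changes was not tested.

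With the replicate number as a block 5 of the 20 collagen genes were called higher (Col4a3, Col4a4, Col4a5, Col8a1 and Col23a1). Over all 11017 tested genes 1597 were called higher with this block, against 2325 without it. The numbers were not shown to pair the samples: the deviations of same-numbered libraries correlated at 0.11, 0.04 and 0.10, though each library correlated best with its own number. Depth limits the 24 genes below the filter, of which 3 had under 10 fragments in all, and no exact permutation test of 3 libraries against 3 can give a p below 0.10.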
